A study of Mus musculus with 4 samples.

Results

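Gata2, Gata3, Lmx1b, En1 and En2 encode transcription factors that serotonergic neurons of the brainstem use, and their transcripts were read in mouse dorsal raphe nucleus on 4 single-colour microarrays. The members were the probes whose symbol in the array's probe-to-gene table was 1 of these 5 names, which gave 5 probes, 1 for each gene, among 16383 genes measured. The labelled tissue, the dorsal raphe, is the main source of serotonergic fibres to the forebrain and came from male C57BL/6J background mice 10 weeks old. The groups were stressed mice labelled as knockout for the dopamine D2 receptor (D2R-KO), stressed mice labelled as knockout for its long splice form (D2LR-KO), stressed wild-type (WT) mice and non-stressed WT mice, with no further detail of the alleles in the labels. Stressed mice swam for 6 min a day on 4 days and were sampled 12 h after the last swim. Each group was 1 pool of 5 mice on 1 array, and no unstressed knockout was analysed here. Replicate errors and tests are therefore not possible below, and precision is limited by having 1 array a group. The Drd2 probe, for the targeted gene, had deposited intensities of 20.9 in D2R-KO, 48.3 in D2LR-KO, 43.8 in stressed WT and 26.8 in non-stressed WT. It was detected on all 4 arrays, and its normalised log2 difference from non-stressed WT was -0.16 in D2R-KO and 0.48 in D2LR-KO. Over stressed WT the difference was -0.60 in D2R-KO and 0.04 in D2LR-KO, and D2LR-KO over D2R-KO it was 0.64. The -0.60 and the 0.64 were past 1.5-fold, as were 8.64% of all genes on the lower side and 0.66% on the higher side, in that order. Whether the probe lies inside the deleted sequence is unknown here, so it does not check the knockout labels.

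GATA2 and GATA3 are zinc finger proteins that bind the sequence GATA. In the embryonic hindbrain Gata2 acts early in newborn serotonergic neurons and Gata3 after it, and Gata3 stays on in adult ones. Both are also used by GABA neuron lineages of midbrain and hindbrain, together with Tal1. LMX1B, a LIM homeodomain protein, is needed to form serotonergic neurons and to keep their synthesis and transporter genes on. The Engrailed homeodomain proteins EN1 and EN2 pattern the midbrain-hindbrain boundary and later maintain dorsal raphe serotonergic neurons and midbrain dopamine neurons.

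The promoters of Gata2 and Gata3 are shown because the results turn on these members, with those of Tph2 and Slc6a4, genes of serotonin synthesis and uptake whose expression depends on serotonergic transcription factors. Each runs from 250 bases before a RefSeq start (GRCm38.p6) to 50 bases after it, 5′ to 3′ on the gene's strand. Capitals mark matches to GATA with A or T before it and A or G after it, on either strand.
Gata2, upstream start, chr6:88193641-88193940, plus strand: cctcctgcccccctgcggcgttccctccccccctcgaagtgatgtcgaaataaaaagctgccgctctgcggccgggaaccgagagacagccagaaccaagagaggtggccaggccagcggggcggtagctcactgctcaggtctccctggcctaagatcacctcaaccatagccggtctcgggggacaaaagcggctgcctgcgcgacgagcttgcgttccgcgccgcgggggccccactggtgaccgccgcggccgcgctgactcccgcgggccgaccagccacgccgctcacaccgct
Gata2, downstream start, chr6:88198414-88198713, plus strand: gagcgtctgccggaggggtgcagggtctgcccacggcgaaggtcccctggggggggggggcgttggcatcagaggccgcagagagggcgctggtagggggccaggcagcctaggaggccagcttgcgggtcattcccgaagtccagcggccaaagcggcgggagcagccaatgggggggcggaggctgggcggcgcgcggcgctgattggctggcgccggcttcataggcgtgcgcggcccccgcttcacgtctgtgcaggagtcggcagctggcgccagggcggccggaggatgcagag
Gata3, chr2:9878551-9878850, minus strand: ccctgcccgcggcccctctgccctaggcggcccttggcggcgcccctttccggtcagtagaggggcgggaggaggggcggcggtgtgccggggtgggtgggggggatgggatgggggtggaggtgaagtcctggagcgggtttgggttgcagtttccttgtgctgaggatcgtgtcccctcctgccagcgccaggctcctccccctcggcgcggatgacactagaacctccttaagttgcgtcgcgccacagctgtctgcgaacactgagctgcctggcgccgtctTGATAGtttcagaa
Tph2, chr10:115184973-115185272, minus strand: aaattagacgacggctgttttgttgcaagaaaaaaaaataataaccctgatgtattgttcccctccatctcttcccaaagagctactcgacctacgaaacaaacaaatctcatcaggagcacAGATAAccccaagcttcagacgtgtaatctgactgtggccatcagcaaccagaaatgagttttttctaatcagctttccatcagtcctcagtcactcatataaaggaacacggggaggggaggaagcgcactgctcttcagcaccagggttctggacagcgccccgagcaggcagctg
Slc6a4, chr11:76998347-76998646, plus strand: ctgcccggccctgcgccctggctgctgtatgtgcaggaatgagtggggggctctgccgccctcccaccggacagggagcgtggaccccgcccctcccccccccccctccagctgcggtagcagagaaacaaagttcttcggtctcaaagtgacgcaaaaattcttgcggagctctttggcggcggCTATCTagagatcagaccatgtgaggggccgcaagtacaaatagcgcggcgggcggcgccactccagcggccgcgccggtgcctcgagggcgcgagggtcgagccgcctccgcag
A GATA match stood in the Gata3, Tph2 and Slc6a4 windows, 1 in each, and in neither Gata2 window. It began at position 37 for Gata3, -128 for Tph2 and -65 for Slc6a4, counted from 1 at the start, and the Slc6a4 match reads CTATCT on the strand shown. Of 32851 RefSeq promoter windows of this length 29.8% held such a match. The Lmx1b and En1 windows held none, no member window held TAATTA, a core read by many homeodomain proteins and present in 5.29% of windows, and En2 was not analysed for this. A match is a description of letters and not of binding.

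All 5 probes lay above the BLANK spots on all 4 arrays, but several only by a little. BLANK spots carry no probe and averaged 38.1 intensity units in D2R-KO, 36.8 in D2LR-KO, 38.9 in stressed WT and 38.6 in non-stressed WT, with SDs of 0.707, 0.63, 0.744 and 0.793 in the same order. A spot was called detected above their mean plus 2 SD, which 91.0% to 91.6% of gene probes passed. Gata3 exceeded the BLANK mean by 140.0 units in D2R-KO, 59.2 in D2LR-KO, 77.5 in stressed WT and 63.0 in non-stressed WT. Gata2 exceeded it by 67.7 units in D2R-KO, 39.8 in D2LR-KO, 20.6 in stressed WT and 32.1 in non-stressed WT. These units are before any scaling between arrays. En1 lay 16.8 to 25.3 units and En2 14.7 to 25.7 units above the BLANK mean, at least 22.5 SD of the BLANK spots. Lmx1b was the exception, with 9.99 units in D2R-KO, 6.39 in D2LR-KO, 17.1 in stressed WT and 8.77 in non-stressed WT. Its spot of 43.1 in D2LR-KO was below the brightest of the 96 negative control spots there (43.5), and on the D2R-KO and non-stressed WT arrays it was 1.04 and 1.03 times the brightest.

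**Figure D1:**
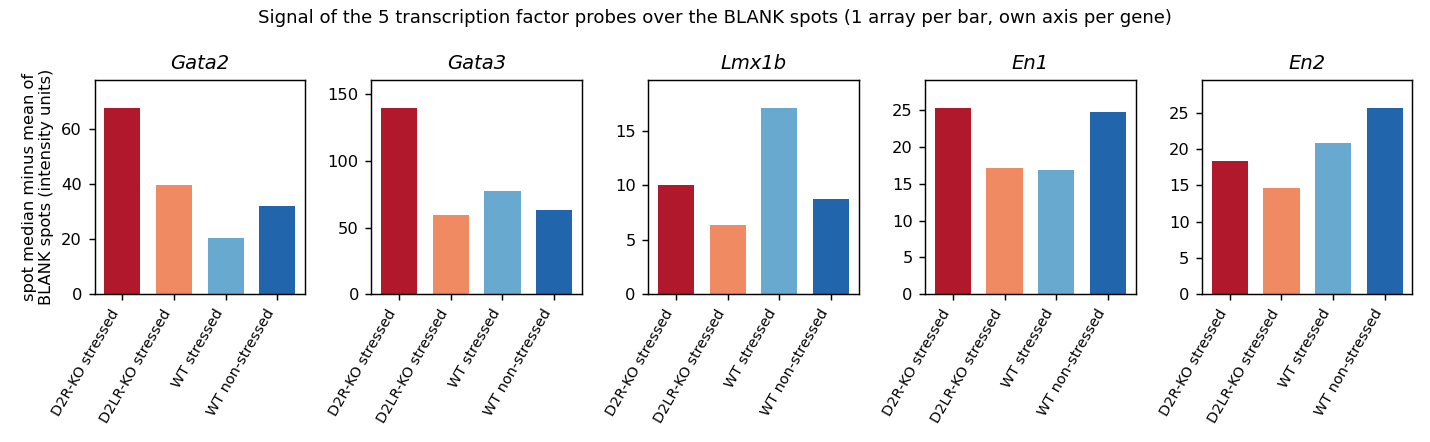
Bars give the spot median minus the mean of the BLANK spots, in unscaled intensity units, for each member on the stressed D2R-KO, stressed D2LR-KO, stressed WT and non-stressed WT array, with an axis of its own for each gene. Gata2 and Gata3 are highest in D2R-KO (67.7 and 140.0 units), and the Lmx1b bars stay at or under 17.1 units.

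The scale of a difference matters for probes this dim. Normalised signal, the main measure, was corrected for background with the BLANK spots, raised by an offset of 50, put on the log2 scale and quantile normalised. The offset pulls dim probes together, so the authors' deposited intensities, scaled to a median of 25 on every array and without offset, are given beside it. A gene was called higher or lower when its normalised signal differed at least 1.5-fold (0.58 on the log2 scale) and 1 or both of the compared spots passed the detection limit. Repeated positive control spots, all bright, differed between 2 arrays with an SD of 0.10 to 0.20 on the log2 scale, a spread among spots and not among mice.

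Gata3 was the member that stood furthest from non-stressed WT, in the D2R-KO pool. Its deposited intensity was 77.9 in D2R-KO, 39.2 in D2LR-KO, 48.8 in stressed WT and 30.8 in non-stressed WT. The D2R-KO value was thus the highest and the other stressed pools lay between it and non-stressed WT. In normalised signal Gata3 was 1.70-fold higher in D2R-KO than in non-stressed WT (log2 difference 0.77), the 36th highest difference of 15607 genes. That was the only member called in this comparison, where 0.577% of all genes were called higher and 1.49% lower. Stressed WT exceeded non-stressed WT by 0.45 and D2LR-KO exceeded it by 0.19, neither of which was called. D2R-KO exceeded stressed WT by 0.32, and D2LR-KO differed from stressed WT by -0.26. Between the knockouts the difference was -0.58 for D2LR-KO over D2R-KO, 1.49-fold and just under the threshold, where 0.66% of genes were called higher and 0.333% lower, and Gata3 was 55th from the lowest of 15606.

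Gata2 was also highest in D2R-KO, but its order among the other arrays differed from that of Gata3. Its deposited intensity was 37.7 in D2R-KO, 26.3 in D2LR-KO, 13.0 in stressed WT and 15.7 in non-stressed WT. Both knockout pools lay above both WT pools. Normalised signal was 1.59-fold higher in D2R-KO than in stressed WT (0.67), the only member called there. In that comparison 9.33% of all genes were called higher and 8.64% lower, and Gata2 ranked 1119th from the highest of 15655 genes, so many genes differed by as much there. Against non-stressed WT, Gata2 in D2R-KO was 1.47-fold higher (0.55), just short of a call and the 118th highest of 15607, and the deposited ratio was 2.40. D2LR-KO exceeded non-stressed WT by 0.31 (deposited ratio 1.68) and stressed WT by 0.43 (deposited ratio 2.02). Stressed WT differed from non-stressed WT by -0.12, and D2LR-KO from D2R-KO by -0.24.

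The brightness around the Gata2 spot was not the same on all arrays. It was 60.1 units in D2R-KO, 64.0 in D2LR-KO, 39.8 in stressed WT and 58.7 in non-stressed WT. With that brightness as the background, the Gata2 difference of D2LR-KO became 0.04 over non-stressed WT and -0.08 over stressed WT, while that of D2R-KO became 0.43 and 0.31. The D2LR-KO excess of Gata2 thus depended on the background used. The D2R-KO excess also shrank, from 0.55 over non-stressed WT and from 0.67 over stressed WT, and the latter was no longer past 1.5-fold. Gata3 in D2R-KO over non-stressed WT was 0.75 with that background and D2LR-KO over D2R-KO was -0.65. Across gene probes, brightness around the spot followed the spot itself (r = 0.80 to 0.887 across probes within an array, which are not independent), so it is no clean measure of background.

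Lmx1b differed little in normalised signal and by more in the deposited intensities. Those intensities were 5.6 in D2R-KO, 4.2 in D2LR-KO, 10.8 in stressed WT and 4.3 in non-stressed WT, so that stressed WT alone stood out. Stressed WT exceeded non-stressed WT by 0.22 in normalised signal, against a deposited ratio of 2.51. The differences over stressed WT were -0.16 for D2R-KO (deposited ratio 0.519) and -0.22 for D2LR-KO (deposited ratio 0.389). At these ratios the larger value lay 17.1 units above the BLANK mean and the smaller ones under 10 units, near the negative controls.

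The Engrailed genes were the flattest members. En1 had deposited intensities of 14.1 in D2R-KO, 11.3 in D2LR-KO, 10.6 in stressed WT and 12.1 in non-stressed WT. En2 had 10.2 in D2R-KO, 9.7 in D2LR-KO, 13.2 in stressed WT and 12.5 in non-stressed WT. The highest array exceeded the lowest by 1.33-fold for En1 and 1.36-fold for En2, and neither passed 1.5-fold in any of the 6 comparisons on either scale. En1 was highest in D2R-KO, whereas En2 was lower in both knockout pools than in both WT pools, which with the brightness around each spot as background turned to 0.02 and 0.07 for D2R-KO over non-stressed and stressed WT. Their largest normalised differences were 0.17 for En1 (D2R-KO over stressed WT) and -0.09 for En2 (D2LR-KO over non-stressed WT and over stressed WT). The spread between replicates at this brightness was not measured here.

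In the deposited intensities, without an offset, more members passed 1.5-fold, and so did more of all genes. Gata2 and Gata3 were past it in D2R-KO over non-stressed WT (ratios 2.40 and 2.53), where 7.96% of all genes were higher and 6.62% lower by that rule. Gata2 was past it in D2LR-KO over non-stressed WT, where 6.08% of all genes were higher and 6.82% lower. Gata3 and Lmx1b were past it in stressed WT over non-stressed WT (ratios 1.58 and 2.51), where 22.2% of all genes were higher and 24.6% lower. Over stressed WT, Gata2 and Gata3 were higher and Lmx1b lower in D2R-KO, where 29.2% of all genes were higher and 22.9% lower. In D2LR-KO over stressed WT, Gata2 was higher and Lmx1b lower, where 25.4% of all genes were higher and 23.3% lower. Gata3 was past it in D2LR-KO over D2R-KO (ratio 0.503), where 4.35% of all genes were higher and 5.29% lower.

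**Figure D2:**
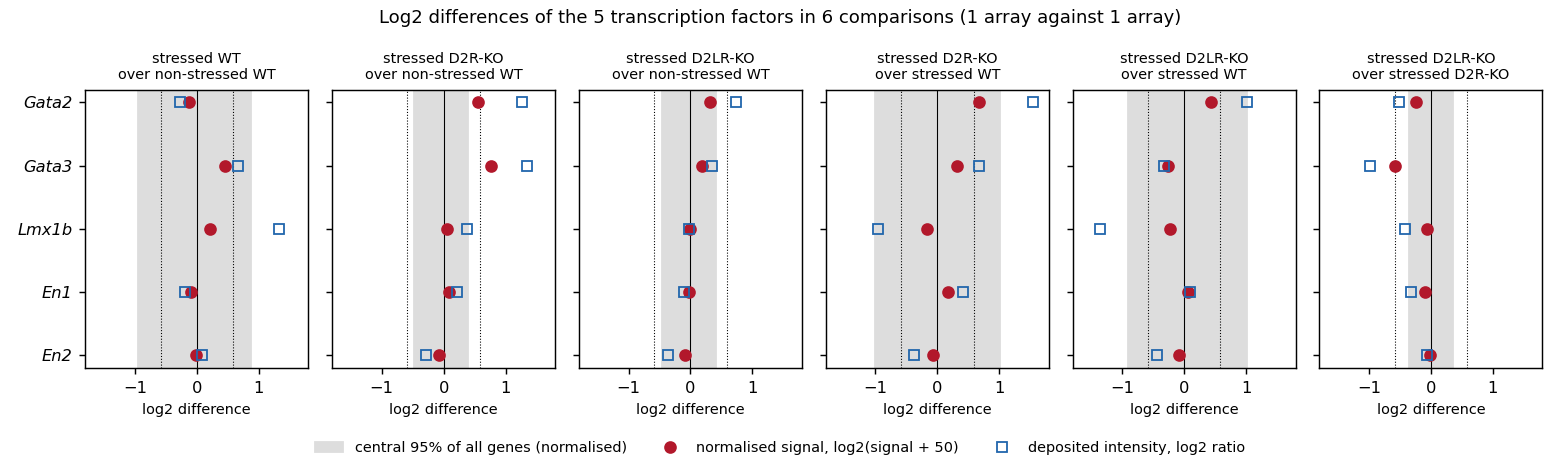
Each panel is 1 comparison, with the log2 difference of each member from normalised signal (filled circles) and from deposited intensities (open squares). Grey bands hold the central 95% of all genes in normalised signal, from -0.47 to 0.39 for D2R-KO over non-stressed WT, and dotted lines mark 1.5-fold; Gata2 and Gata3 lie right of the band in that panel, and Gata3 left of it for D2LR-KO over D2R-KO.

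Across the 5 members together, signs were mixed in each comparison except D2LR-KO over D2R-KO. Their median log2 difference over non-stressed WT was -0.01 in the stressed WT pool, 0.08 in the D2R-KO pool and -0.01 in the D2LR-KO pool, against medians over all genes of 0.00, 0.01 and 0.00 in that order. Over stressed WT their median was 0.17 in D2R-KO and -0.09 in D2LR-KO, each against -0.01 over all genes. All 5 members had a negative difference for D2LR-KO over D2R-KO, with a median of -0.10 against 0.00 over all genes, and also with an offset of 16 and in the deposited intensities. The shared sign was lost in other settings, where Lmx1b turned to 0.01 with the brightness around each spot and to 0.02 with each array scaled to 1 median, and En2 turned to 0.03 with that scaling. Comparisons that use the same array share its error. The stressed WT array stood apart from the others over all genes, with correlations of 0.958 to 0.966 against 0.99 to 0.994 among the other 3, and 41.0% of 14704 genes detected on all arrays were highest on it.

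Genes that make, package, take up, break down or sense serotonin were set beside the factors, with whole-nucleus RNA leaving fewer serotonergic neurons and less RNA per neuron impossible to tell apart. Tph2, the limiting enzyme of neuronal serotonin synthesis, had deposited intensities of 264.6 in D2R-KO, 151.5 in D2LR-KO, 10.7 in stressed WT and 31.4 in non-stressed WT. Slc6a4, the serotonin transporter, had 89.6 in D2R-KO, 43.5 in D2LR-KO, 6.8 in stressed WT and 11.6 in non-stressed WT. Both defining markers of the labelled nucleus were detected on all 4 arrays and were higher in both knockout pools than in both WT pools. Slc6a4 lay below the array median of 25 in both WT pools, and Tph2 did so in stressed WT. The dopamine neuron genes Th (772.8 to 1155.5 over the 4 arrays) and Slc6a3 (278.4 to 454.3) were brighter than both on every array. Slc18a2 had 1197.8 in D2R-KO, 1132.7 in D2LR-KO, 718.1 in stressed WT and 702.5 in non-stressed WT. How much raphe tissue and how much tissue with dopamine neurons each pool held was not tested. Of 13 such genes, 3 were called higher and 0 lower in D2R-KO over non-stressed WT, with a list median of 0.14. They were Tph2, Slc6a4 and Gchfr, which encodes a regulator of tetrahydrobiopterin synthesis. Of all genes 0.577% were called higher and 1.49% lower there. The same 3 were called higher in D2LR-KO over non-stressed WT (0.745% of all genes were called higher and 1.41% lower there), with a median of 0.34. In stressed WT over non-stressed WT, Tph2 was called lower (-0.63) and none higher, with a median of -0.05. Of all genes 7.27% were called higher and 8.12% lower there. Over stressed WT the same 3 were called higher and Pts, an enzyme of tetrahydrobiopterin synthesis, lower in D2R-KO (-0.91) and in D2LR-KO (-0.75), with medians of 0.21 and 0.24. Over that array 9.33% of all genes were called higher and 8.64% lower in D2R-KO, and 8.72% and 8.2% in D2LR-KO. In D2LR-KO over D2R-KO, Slc6a4 was called lower (-0.63) and none higher, where 0.66% of all genes were called higher and 0.333% lower. Lmx1b, En1 and En2 stayed within 1.5-fold in both knockouts over non-stressed WT on both scales. The summed deposited intensity of the 13 genes was 9126.8 in D2R-KO, 8667.8 in D2LR-KO, 5776.8 in stressed WT and 6408.1 in non-stressed WT. Qdpr carried the largest share of that sum, with 4563.8 in D2R-KO, 3957.3 in D2LR-KO, 2844.7 in stressed WT and 2913.9 in non-stressed WT, and was not called in any comparison.

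Genes of midbrain and hindbrain GABA neurons were mixed, with Tal1 the listed gene nearest to Gata2, Slc32a1 the listed gene nearest to Gata3 and others close to neither. Tal1, a partner of the GATA factors in those neurons, had deposited intensities of 75.7 in D2R-KO, 53.8 in D2LR-KO, 38.5 in stressed WT and 38.7 in non-stressed WT. Slc32a1, the vesicular GABA transporter, had 624.4 in D2R-KO, 354.6 in D2LR-KO, 430.0 in stressed WT and 392.5 in non-stressed WT. Likeness in shape and size together was measured as the Euclidean distance between log2 signals centred over the 4 arrays. Among the genes of all lists, Tal1 was nearest to Gata2 (distance 0.14, with 36 of 14703 genes nearer), and Slc32a1 was nearest to Gata3 (0.32, with 65 genes nearer) but 0.73 from Gata2, with 75.2% of genes nearer. Slc32a1 and Gata3 differed in sign for D2LR-KO over non-stressed WT, with -0.16 against 0.19. Gad2, which makes GABA, was 0.58 from Gata2 and 0.66 from Gata3, and Tal2 was 0.76 and 0.62 away in that order. Serotonin genes were also mixed. Gch1, the first enzyme of tetrahydrobiopterin synthesis, was the listed gene next nearest to Gata2 (0.29), Qdpr, which regenerates that cofactor, next nearest to Gata3 (0.39), and Slc18a2, the vesicular monoamine transporter, was 0.39 and 0.46 from Gata2 and Gata3. Genes of other lists lay nearer than Slc18a2. From Gata2 these included Aldh1a1 of the dopamine neuron list (0.31), Barhl1 of the cerebellum list (0.36) and Tek of the endothelium list (0.36). From Gata3 they included Cbln1 of the cerebellum list and the boundary factor Gbx2 (0.44 each). Nearness was thus not particular to GABA or serotonin genes. Tph2 was 1.72 from Gata2 and 2.05 from Gata3. Such a distance grows with the size of the differences, also where the order of arrays is the same. In normalised signal Tph2 differed from non-stressed WT by 2.13 in D2R-KO, 1.55 in D2LR-KO and -0.63 in stressed WT. For Slc6a4 the values were 1.46, 0.83 and -0.22. Both thus had the array order of Gata2, with larger differences. Of the 5 GABA neuron genes measured, which also include Gad2, Tal2 and Sox14, none was called in D2R-KO over non-stressed WT, with a median of 0.15. Slc32a1 was the 1 gene of the list called in any comparison, lower in D2LR-KO over stressed WT (-0.60) and over D2R-KO (-0.63). Of all genes 8.2% were called lower in the first of these comparisons and 0.333% in the second. Their summed deposited intensity was 1311.0 in D2R-KO, 783.9 in D2LR-KO, 796.6 in stressed WT and 953.2 in non-stressed WT, most of it from Slc32a1 and Gad2. The part of GABA neurons in the Gata2 and Gata3 values was not tested.

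**Figure D3:**
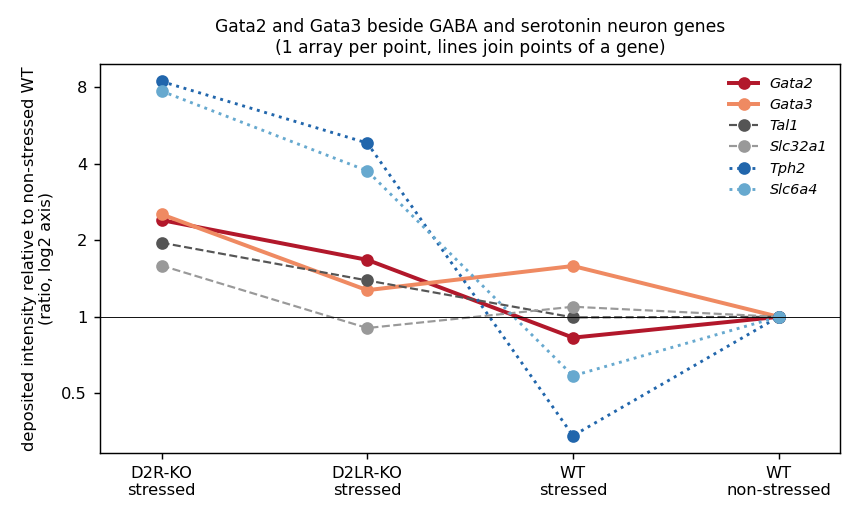
Deposited intensity on the 4 arrays divided by that of the same gene in non-stressed WT (log2 axis), for Gata2 and Gata3, for Tal1 and Slc32a1, the listed genes nearest to them, and for the serotonergic markers Tph2 and Slc6a4. All 6 genes are highest in stressed D2R-KO, as were 22.4% of 14704 genes in normalised signal. Tal1 and Slc32a1 were drawn for their nearness in these same arrays, so their likeness is no support. Tal2 of the same list was not highest there (12.2 against 24.0 in stressed WT). The Tph2 and Slc6a4 lines span more than those of the GATA factors. In stressed WT the Gata3 line is above its non-stressed level (48.8 against 30.8) while the Gata2 line is below (13.0 against 15.7).

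Over all genes rather than lists, the 3 closest to Gata2 were Ephb1, an ephrin receptor, at a distance of 0.036, Vash2 (0.048) and Crnde (0.058). Ephb1 had deposited intensities of 213.3 in D2R-KO, 165.3 in D2LR-KO, 99.0 in stressed WT and 122.9 in non-stressed WT, the same order as Gata2. The 3 closest to Gata3 were Asah2, a ceramidase, at 0.091, the splicing factor Srsf6 (0.097) and Rcan2, a calcineurin regulator (0.104). Rcan2 had 2094.8 in D2R-KO, 1174.1 in D2LR-KO, 1142.5 in stressed WT and 1012.6 in non-stressed WT, with D2LR-KO above stressed WT here and below it in normalised signal. Within a distance of 0.25 lay 339 genes for Gata2 and 15 for Gata3, so over 4 arrays many genes lay near Gata2. That radius is fixed and Gata3 spans more (0.77 against 0.67 on the log2 scale). The counts therefore do not show how common either array order is. Lmx1b, En1 and En2 spanned less than 1.5-fold in normalised signal, and no neighbours are named for them.

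Relatives and partners of the factors were read in the same way. Of 10 genes of the GATA, GATA cofactor and LIM homeobox groups, none was called in D2LR-KO over non-stressed WT. None of the 9 tested was called in D2R-KO over non-stressed WT. Of all genes 0.577% were called higher and 1.49% lower in D2R-KO there, and 0.745% and 1.41% in D2LR-KO. No call among so few genes is near those shares. Zfpm2, a GATA cofactor, was called lower in stressed WT over non-stressed WT (-0.62), where 7.27% of all genes were called higher and 8.12% lower. Gata1, a member of the family used in blood cells, had deposited intensities of 25.0 in D2R-KO, 32.0 in D2LR-KO, 48.0 in stressed WT and 30.8 in non-stressed WT, an order unlike that of Gata2 and Gata3. Gata5 was near the detection limit, with a spot of 39.0 in D2R-KO against a limit of 39.5 there. The cofactor Ldb1, which bridges LIM and GATA complexes, was called lower in D2R-KO over stressed WT (-0.80), and Zfpm2 was called higher there (0.78). Of all genes 9.33% were called higher and 8.64% lower in that comparison. Over stressed WT in D2LR-KO, Lmo2 was called higher (0.73) and Ldb2 (-0.77) and Ldb1 (-0.63) lower, beside 8.72% of all genes called higher and 8.20% lower. Of the other factors of the serotonergic lineage, Foxa2, Gli1, Gli2 and Pou3f2 were measured and none was called in any of the 6 comparisons.

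Genes of other cells and regions that use the members were also read. Over non-stressed WT, 0.577% of all genes were called higher and 1.49% lower in D2R-KO. The shares were 0.745% and 1.41% in D2LR-KO and 7.27% and 8.12% in stressed WT. Of 9 midbrain dopamine neuron genes, which share En1 and En2, none was called higher in D2R-KO over non-stressed WT and 2 were lower, the dopamine transporter Slc6a3 (-0.78) and the transcription factor Nr4a2 (-0.70). In D2LR-KO over non-stressed WT, Nr4a2 (-0.72) was the 1 called lower and none was called higher. In stressed WT over non-stressed WT the homeobox gene Pitx3 (0.73) and Th, tyrosine hydroxylase (0.71), were called higher. In D2R-KO over stressed WT, Th (-1.11), Slc6a3 (-0.90), Pitx3 (-0.75) and Drd2 (-0.60) were called lower and Aldh1a1 (0.63) higher. Of all genes 9.33% were called higher and 8.64% lower there. In D2LR-KO over stressed WT, Th (-0.90) and Pitx3 (-0.66) were called lower and Aldh1a1 (0.69) higher, where 8.72% of all genes were called higher and 8.2% lower. In D2LR-KO over D2R-KO, Slc6a3 (0.70) and Drd2 (0.64) were called higher and none lower, where 0.66% of all genes were called higher and 0.333% lower. Of 6 patterning factors of the midbrain-hindbrain boundary, Pax2 was called higher in stressed WT over non-stressed WT (0.79) and none in either knockout over non-stressed WT. Over stressed WT, Pax2 was called lower in D2R-KO (-0.76) and in D2LR-KO (-0.81). Of 9 cerebellum genes, none was called in either knockout over non-stressed WT, and Zic1 (-1.08) and Zic2 (-0.94) were called lower in stressed WT. Of 8 genes of endothelium and blood cells, which also use Gata2, none was called in either knockout over non-stressed WT, and Pecam1 was called lower in stressed WT (-0.81). Over stressed WT, Pecam1 was called higher in D2R-KO (0.70) and in D2LR-KO (0.80), and Kdr in D2LR-KO (0.60). Tal1, given above with the GABA neuron genes, is also 1 of these 8. It had the largest of their differences in D2R-KO over non-stressed WT (0.56). Their part in the values of the members was not tested.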

How the data were processed

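Per the labels' protocols, total RNA was amplified as amino allyl aRNA, labelled with Cy5 and hybridised to Toray arrays. Per the file headers, scans at 3 gains were made of each array, and the scanner files hold the median intensity of each spot at 635 nm and the median around it. The sources used here do not give how these scans were merged. The value table deposited by the authors is also linear intensity. From the values, it subtracts from each spot a constant (36.8 to 38.8, by array) and divides by a factor (1.51 to 2.05). From the spot medians, signal was computed with limma 3.58.1 in R 4.3.3 (function nec, BLANK spots as negative controls, offset 50), log2 and quantile normalization over gene probes of all 4 arrays. A single gene symbol was given for 16631 of 23473 probes and none here for 6842. Of 16446 symbols, 3883 older ones were updated and 62 kept as given. The probe with the highest mean signal stood for a gene with several, and 9 spots marked not usable were left out. All 5 members were named on every array. From each gene list the members with the largest differences were named, up to 4 a comparison, and for each member spanning 1.5-fold the 3 nearest genes. The procedure was tested on simulated data built from the non-stressed WT array. Changes were placed only in probes brighter there than any member, so the test does not cover changes at the brightness of the members. The alternatives were the brightness around each spot as background, scaling to 1 median, an offset of 16, the deposited intensities, detection at 3 SD and a threshold of 2-fold. Members and lists were chosen with earlier results of these data known. Python 3.11.15 with pandas 2.3.3 was used for the rest.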

Additional observations from a re-analysis of the deposited data

How the results depend on the processing

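No paired analysis was possible because each group is 1 array. Counts of members called at 1.5-fold changed as follows. With the deposited intensities, 2 members were higher in stressed WT over non-stressed WT (Gata3 and Lmx1b, against 0), 2 in D2R-KO over non-stressed WT (Gata2 and Gata3, against 1), 1 in D2LR-KO over non-stressed WT (Gata2, against 0), 2 in D2R-KO over stressed WT (Gata2 and Gata3, against 1) and 1 in D2LR-KO over stressed WT (Gata2, against 0). Lmx1b was then the 1 member lower in each knockout over stressed WT, against 0. The median over all genes was 0.11 (log2) in D2R-KO over stressed WT in those intensities and within 0.09 of 0 otherwise. An offset of 16 gave 1 higher in stressed WT over non-stressed WT (Gata3), 2 in D2R-KO over non-stressed WT and 1 in D2LR-KO over stressed WT (Gata2). Scaling to 1 median gave 2 higher in D2R-KO over non-stressed WT. The brightness around each spot left 0 higher in D2R-KO over stressed WT. Gata3 was the 1 member lower in D2LR-KO over D2R-KO, against 0, under these 4 alternatives. Shares of all genes called were computed only for the main and deposited scales. Counts under the other settings therefore cannot be read against all genes. A threshold of 2-fold left 0 higher in D2R-KO over either WT array, and detection at 3 SD changed no count. Both called differences, Gata3 in D2R-KO over non-stressed WT and Gata2 in D2R-KO over stressed WT, kept their direction under the 4 alternatives that recompute them, from 0.75 to 1.34 and from 0.31 to 1.54. Of 30 member differences, 23 kept their sign with the brightness around each spot, 25 with 1 median, 30 with an offset of 16 and 29 with the deposited intensities. Signal over the BLANK spots limits Lmx1b most.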
